A study of Rattus norvegicus with 8 samples.

Results

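Slc5a5 encodes the sodium-iodide symporter of the rat. It was followed through its gene symbol, which 1 probe set, 1369020_at, carried among 31099 on the array. It was 1 of 14217 genes with a probe set of a single symbol, and 1 of the 10047 of these that were bright enough to be tested. The gene was chosen by name and not by its values here.

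The symporter sits in the basolateral membrane of the thyroid follicular cell and carries iodide from the blood into the cell together with sodium, driven by the sodium gradient that the sodium-potassium ATPase maintains. Iodide then leaves at the apical side and is bound to thyroglobulin, the protein on which thyroid hormone is made. Thyrotropin (TSH) raises symporter transcription through its receptor and cAMP, with PAX8 and NKX2-1 among the factors known at the gene, and a high iodide load is known to lower symporter mRNA in thyroid tissue.

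The cells were the SB5 sub-clone of FRTL-5, a line of rat thyroid follicular cells that needs TSH to grow. They stably carried the human TSH receptor, either wild type (WT) or the L629F form, in which an exchanged amino acid makes the receptor signal even when no hormone is bound. The 4 groups of 2 arrays were WT cells with 1 mM sodium chloride, WT cells with 1 mM sodium iodide, L629F cells with 1 mM sodium chloride and L629F cells with 1 mM sodium iodide, and all of them also had 5 mU/ml bovine TSH. Each receptor was represented by 1 line, so a difference between receptors and a difference between lines cannot be told apart, and the labels give no duration of treatment. The labels do not say that the arrays of a group came from separate cultures, so the tests measure the spread between these arrays, which may be technical.

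The 250 bases before the annotated start of Slc5a5 are shown because the regulators described below act on transcription of this gene. The window need not hold the sites where they act. They lie at chr16:18580455-18580704 on the plus strand of GRCr8 and are taken from RefSeq, written 5′ to 3′. Capitals mark matches to GGGCGG, the core of the GC box bound by SP1, and to CAAG, a core bound by NKX2-1.
Slc5a5 upstream sequence: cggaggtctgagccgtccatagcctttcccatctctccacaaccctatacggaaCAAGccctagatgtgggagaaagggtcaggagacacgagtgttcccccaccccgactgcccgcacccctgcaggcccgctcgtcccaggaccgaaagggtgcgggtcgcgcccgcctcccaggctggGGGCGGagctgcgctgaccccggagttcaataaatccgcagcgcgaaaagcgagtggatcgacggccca

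G and C made up 65.2% of these bases, against a median of 51.2% over the same window of 33469 promoters. With both strands searched, GGGCGG matched once, 69 to 64 bases before the start, and 30.5% of all promoters hold it. CAAG matched once, 196 to 193 bases before the start, and 86.7% of promoters hold it. TGACG, part of the cAMP response element, had 0 matches in this window and is held by 18.2% of promoters. The motifs do not overlap one another here, and a match describes the letters only.

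The follicular cell identity of the samples was checked first. Of the 8 other follicular markers on the array, 7 were above the dim level, which was a mean signal of 69.9 and which the lowest 40% of probe sets did not reach. Tg, Pax8, Nkx2-1, Foxe1, Hhex, Tshr and Duox2 were the bright ones and Iyd, the iodotyrosine deiodinase, was dim. Markers of other cell types were mostly dim, with 1 of 6 above the level for C cells, 3 of 7 for leucocytes, 2 of 7 for fibroblasts and 1 of 5 for endothelium. Calca, the calcitonin gene that defines C cells, was dim, as was Ptprc of leucocytes. The summed signal of the 6 C cell markers was higher with iodide in both lines, at 316 to 329 in WT chloride and 447 to 459 in WT iodide, and at 443 to 497 in L629F chloride and 563 to 587 in L629F iodide. Only Chgb of these 6 was above the dim level, and its change with iodide over both lines, 0.17 ± 0.17 on the log2 scale (adjusted p = 0.697), did not pass. The 7 leucocyte markers summed to 384.5 to 445 in WT chloride and 459 to 535 in WT iodide, but to 502 to 543 in L629F chloride and 433 to 445 in L629F iodide, so that they were higher with iodide in WT cells and lower in L629F cells. The 5 endothelial markers summed to 328 to 378 in WT chloride and 231 to 466 in WT iodide, which overlapped, and to 337 to 418 in L629F chloride and 198 to 214.5 in L629F iodide, which were lower. The 7 fibroblast markers overlapped between salts in each line, within 335 to 558 over all arrays. The follicular markers summed to 44360 to 55070. The part of these sums in the results was not tested. The Tshr probe set reads the rat gene, so it was no check on the human receptor that the cells carried.

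Slc5a5 signals were lower with iodide in WT cells, a difference that did not pass in the fit described below. The WT chloride arrays had signals of 2819 and 2928, and the WT iodide arrays 825 and 1385. Both iodide arrays lay below both chloride arrays, an order whose share over all tested genes was not determined. The mean signal was 2873 ± 77.1 (SD, n = 2) with chloride and 1105 ± 396 (SD, n = 2) with iodide, so that iodide left 38.5% of the chloride level, and between 28.2% and 49.2% over the single pairs of arrays. In bulk RNA, fewer cells with the transcript and less of it per cell cannot be told apart.

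In L629F cells the signals were 1980 and 2761 with chloride and 1027 and 2149 with iodide. The groups overlapped, because the higher iodide array lay above the lower chloride array. The means were 2370.4 ± 553 and 1588 ± 794 (SD, n = 2 each), so iodide left 67.0% of the chloride level, with single pairs of arrays between 37.2% and 108.6%.

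**Figure D1:**
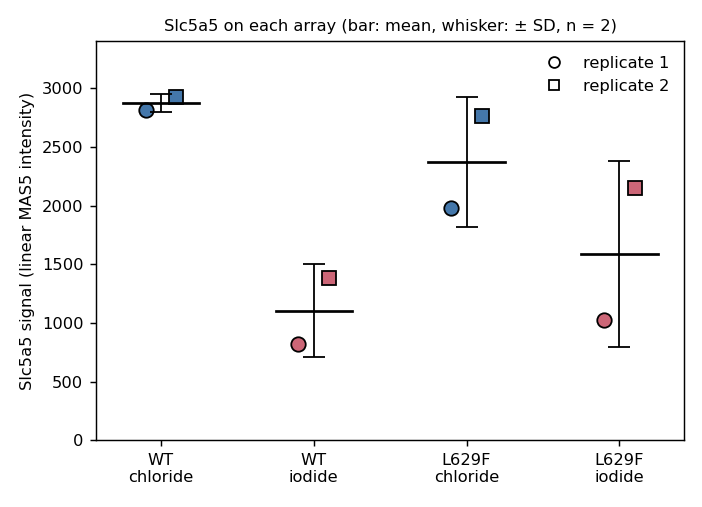
Signal of Slc5a5 on each of the 8 arrays by receptor and salt, on a linear intensity axis from 0. Points are arrays, bars are group means and whiskers the SD of 2 arrays. The WT groups do not overlap, from 825 to 1385 with iodide and from 2819 to 2928 with chloride, whereas the L629F groups do.

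Differences were tested as log2(signal + 35.3), where the pseudocount is the 25th percentile of all signals, so a fold on this scale slightly understates the change. Averaged over both lines, Slc5a5 fell by 1.02 ± 0.21 (SE) on the log2 scale (95% interval -1.47 to -0.57, adjusted p = 0.0258), which is 2.02-fold, and it ranked 22 of 10047 genes from the most negative change. Of all genes tested, 1.66% passed in this comparison, 55 of them higher and 112 lower with iodide, with a median change of 0.012. The single lines did not pass in this fit, but the WT difference did under some alternative settings given below, the replicate block among them. In WT cells the difference was -1.40 ± 0.29 (95% interval -2.03 to -0.76, adjusted p = 0.0617), ranking 11 of 10047 from the lowest, where 0.468% of genes passed. In L629F cells it was -0.64 ± 0.29 (95% interval -1.27 to -0.0071, adjusted p = 0.601), where 0.0896% passed.

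The averaged fall kept its sign when single arrays were left out, but did not pass in each such fit. Each of these fits left 1 group with a single array. Without WT chloride replicate 1 or 2 the fall was about as large as with all arrays, while its SE rose from 0.21 to 0.25. It passed in 3 of the 8 fits that each left out 1 array, with values between -1.28 and -0.76. It no longer passed without WT chloride replicate 1 (-1.03, adjusted p = 0.142), WT chloride replicate 2 (-1.004, adjusted p = 0.132), WT iodide replicate 1 (-0.84, adjusted p = 0.0608), L629F chloride replicate 2 (-0.90, adjusted p = 0.128) or L629F iodide replicate 1 (-0.76, adjusted p = 0.0846). In WT cells the difference passed without L629F iodide replicate 1 (-1.40, adjusted p = 0.0217) or L629F iodide replicate 2 (-1.40, adjusted p = 0.022). An exact permutation test that reassigned salts within each line, two-sided, gave p = 0.111 for the average, with 4 of 36 arrangements as extreme. The smallest p this design allows is 0.0556, so the permutation test could not reach 0.05.

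**Figure D2:**
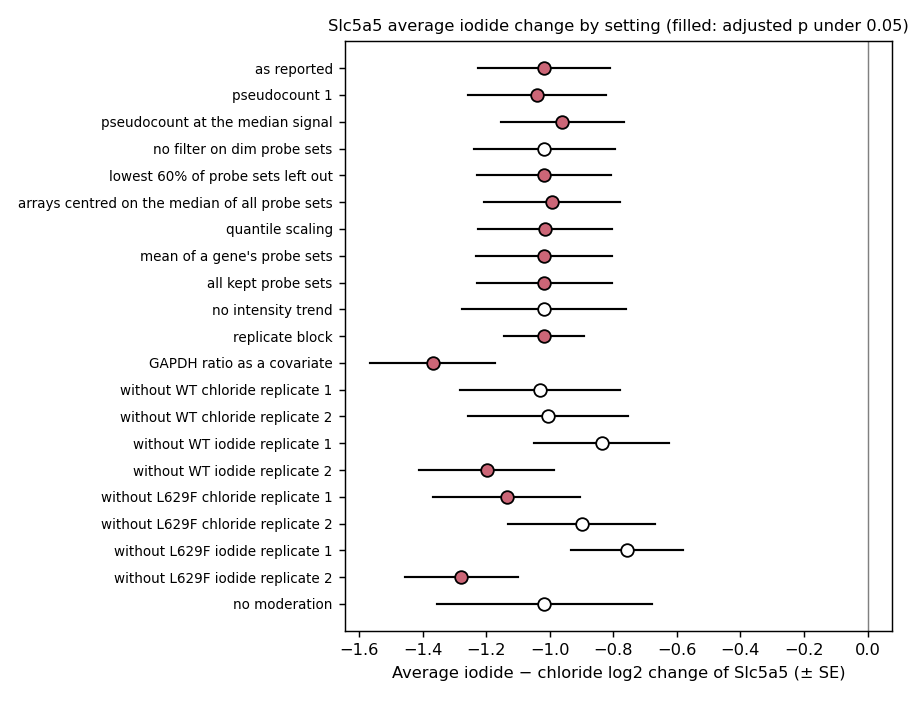
Average iodide minus chloride log2 change of Slc5a5 (x axis, ± SE) in the fit as reported, under the other settings and with each array left out (y axis). Filled points had an adjusted p under 0.05. Every value is below 0, from -1.37 to -0.76, and 3 of the 8 fits without an array are filled.

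Slc5a5 varied more between arrays of a group than most genes. Its residual SD was 0.48 on the log2 scale, against a median of 0.20 over all genes, at the 94.7th percentile. Most of this lay in the iodide groups, whose higher array was 1.68 times the lower in WT cells and 2.09 times in L629F cells, against 1.04 times in WT chloride and 1.395 times in L629F chloride. The ratio of the 3′ to the 5′ GAPDH control probe sets, which is higher where RNA is degraded, was 1.22 and 1.55 in WT chloride, 1.40 and 3.13 in WT iodide, 1.54 and 2.17 in L629F chloride and 2.27 and 2.49 in L629F iodide. In each of the 4 groups the array with the higher ratio also had the higher Slc5a5 signal, and each time it was replicate 2. Within groups, an effect of the ratio and one of the replicate number thus cannot be told apart. With this ratio as a covariate the averaged fall was larger, at -1.37 ± 0.20 (adjusted p = 0.00228), and the WT difference was -1.83 ± 0.27 (adjusted p = 0.00391). The ratio was not balanced between salts. Both L629F iodide arrays lay above both L629F chloride arrays, and the highest ratio was in WT iodide. These larger falls thus rest on carrying a slope seen within groups across the salts.

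The loss of signal with iodide was not shown to differ between the lines. The L629F change minus the WT change was 0.76 ± 0.42 on the log2 scale (95% interval -0.14 to 1.65, adjusted p = 0.993). With limma, 0 of 10047 genes passed for this difference (0%), 419 had an unadjusted p under 0.05, and the count was also 0 in each of the 20 alternative fits. The interval holds both no difference and one larger than the whole L629F change.

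Between receptors, Slc5a5 gave no difference past the threshold. With chloride both L629F arrays, 1980 and 2761, lay below both WT arrays, 2819 and 2928, but the difference of -0.29 ± 0.29 (95% interval -0.93 to 0.34, adjusted p = 0.719) did not pass, where 0.488% of genes did. With iodide the arrays overlapped, 1027 and 2149 in L629F cells against 825 and 1385 in WT cells, and the difference was 0.46 ± 0.29 (95% interval -0.17 to 1.10, adjusted p = 0.554), where 0.508% of genes passed. Without L629F iodide replicate 2 this last value was -0.058. Averaged over both salts it was 0.085 ± 0.21 (95% interval -0.36 to 0.53, adjusted p = 0.857), where 3.16% of genes passed, and its sign turned under 5 alternatives. These comparisons share arrays with the iodide comparisons.

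**Figure D3:**
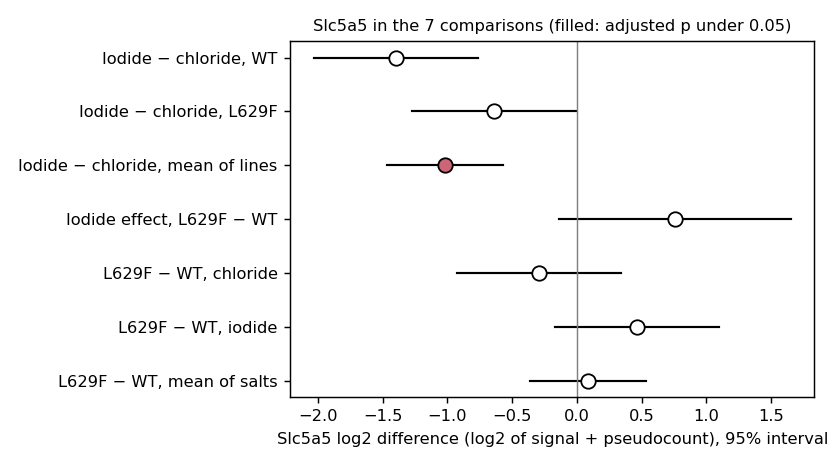
Slc5a5 log2 difference (x axis, point with 95% interval) in each of the 7 comparisons (y axis). Only the iodide change averaged over the lines is filled, for an adjusted p of 0.0258, and the intervals of the receptor comparisons and of the difference between lines include 0.

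By mean signal the groups ran from WT iodide through L629F iodide and L629F chloride to WT chloride. Neighbours in this order differed by ratios of 1.44, 1.49 and 1.21. The first and second of these pairs of neighbours overlapped, and WT chloride lay wholly above L629F chloride.

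Of the other genes that move iodide through the follicular cell, 16 were listed, 12 were on the array and 5 were bright enough to test. With iodide over both lines 0 of the 5 were called higher and 0 lower, where 1.66% of all genes were called, so a count of 0 among so few genes does not set them apart. Their median averaged change was 0.17 against 0.012 over all genes. Ano1, an apical chloride channel that can pass iodide, was 0.20 ± 0.13 (adjusted p = 0.512), and Clcn3, a chloride-proton exchanger, was 0.17 ± 0.13 (adjusted p = 0.614). Other Clcn3 probe sets gave -0.31, -0.17 and 0.11, so they disagreed in sign. Kcne2, a potassium channel subunit needed for iodide uptake, was 0.0072 ± 0.29. The sodium pump subunits Atp1b1 and Atp1b3 were at 0.25 ± 0.11 (adjusted p = 0.286) and -0.082 ± 0.12. A second Atp1b1 probe set gave 0.033. Other Kcne2 probe sets, of mean signals 52.0 and 16.4, gave -0.64 and 0.088. The apical exchanger pendrin, Slc26a4, had a mean signal of 57.9 and Iyd one of 68.5, so neither was tested, and Cftr, Clcn5, Kcnq1, Kcne3 and Slc16a10 were dim as well.

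Of 9 listed genes of hormone synthesis and deiodination, 4 were tested and 0 were called with iodide, beside the 1.66% of all genes, with a median of -0.11. Tg, the thyroglobulin gene, had signals of 12335 and 13477 in WT chloride, 10748 and 13846 in WT iodide, 15811 and 16582 in L629F chloride and 13609 and 13929 in L629F iodide. Its averaged change was -0.16 ± 0.092 (adjusted p = 0.457), while a second Tg probe set gave 0.58, so the probe sets disagreed in sign. Duox2, which makes hydrogen peroxide for hormone synthesis, was -0.22 ± 0.11 with iodide (adjusted p = 0.351). Duox2 was higher in L629F than in WT cells over both salts, by 0.50 ± 0.11 (adjusted p = 0.0255), the 1 member of 4 called in a comparison where 3.16% of all genes were, though it passed in only 1 of the 8 fits without an array, where its adjusted p reached 0.128. The deiodinases Dio1 and Dio3 were at -0.054 ± 0.15 and 0.41 ± 0.30 with iodide, and neither passed.

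Within its own SLC5 family of sodium-coupled transporters, 3 of 13 listed relatives were testable and 0 passed, beside 1.66% of all genes, with a median of -0.11. Slc5a11, a myo-inositol transporter, had the most negative value, -0.75 ± 0.26 (adjusted p = 0.174). Its signals were 171 and 203 in WT chloride, 116 and 28.7 in WT iodide, 317 and 246 in L629F chloride and 208 and 227 in L629F iodide, so that 1 of the 8 arrays lay below the dim level. Slc5a3, another myo-inositol transporter, was -0.11 ± 0.16 and Slc5a6, the multivitamin transporter, 0.076 ± 0.13. A second Slc5a3 probe set, of mean signal 55.9, gave 0.58.

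Of the transcription factors known at the symporter gene, 21 of 22 listed were tested, and 1 rose and 1 fell with iodide over both lines, beside 1.66% of all genes called (55 higher and 112 lower of 10047), with a median of -0.0037 against 0.012 over all genes. Hhex, a homeobox factor of the thyroid, rose by 0.38 ± 0.086 (adjusted p = 0.0434). Its signals were 10396 and 11334 in WT chloride, 13277 and 15866 in WT iodide, 11381 and 11040 in L629F chloride and 14611 and 13793 in L629F iodide, so the salts did not overlap in either line. Jun, a subunit of the AP-1 factor, fell by 0.48 ± 0.11 (adjusted p = 0.04999), at the edge of the threshold. Its signals were 1394 and 1365 in WT chloride, 1175 and 925 in WT iodide, 1533 and 1600 in L629F chloride and 1060 and 1018 in L629F iodide, again without overlap. For Hhex and Jun this lack of overlap comes from the same arrays as the tests they passed, so it is no separate support. The share of all tested genes without overlap in both lines was not determined. The other Jun probe sets gave -0.18 and -0.048. Hhex and Jun each passed in 1 of the 8 fits without an array, with adjusted p up to 0.225 and 0.212.

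The factors most closely tied to symporter transcription did not pass. Pax8 was -0.079 ± 0.11 and Nkx2-1 was 0.059 ± 0.12 with iodide over both lines, with adjusted p of 0.794 and 0.857. A second Pax8 probe set gave -0.40. Foxe1, a forkhead factor of the thyroid, was 0.098 ± 0.087 (adjusted p = 0.655). Sp1, whose core motif stands in the sequence above, was 0.29 ± 0.11 (adjusted p = 0.203), and Usf1 was -0.47 ± 0.18 (adjusted p = 0.217). Other Sp1 probe sets gave 0.26, 0.11, -0.013 and -0.18, and a second Usf1 probe set gave -0.20.

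In the path from the TSH receptor to cAMP, 18 of 20 listed genes were tested and 0 passed with iodide, beside 1.66% of all genes, with a median of -0.055. Rat Tshr had signals of 433 and 616 in WT chloride, 355 and 345 in WT iodide, 567 and 719 in L629F chloride and 400 and 576 in L629F iodide. Both WT iodide arrays lay below both WT chloride arrays and the L629F groups overlapped, and the averaged change was -0.45 ± 0.16 (adjusted p = 0.19). Prkar2a, a regulatory subunit of protein kinase A, was 0.32 ± 0.10 (adjusted p = 0.138), Pde4d, which breaks down cAMP, 0.33 ± 0.11 (adjusted p = 0.147) and Rapgef3, the cAMP sensor EPAC1, -0.58 ± 0.21 (adjusted p = 0.204). Other Prkar2a probe sets, of mean signals 98.3 and 60.5, gave -0.017 and -0.040. Between receptors 1 member was higher, Gnai2, the inhibitory G protein subunit, by 0.46 ± 0.11 in L629F cells over both salts (adjusted p = 0.0374). This is 1 of 18 members where 3.16% of all genes were called, so the count does not set the list apart. Gnai2 passed in 2 of the 8 fits without an array, with adjusted p up to 0.152.

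Genes for delivery of the symporter to the cell surface and for kinases that act on it had 16 tested members of 22 listed, of which 0 passed with iodide, beside 1.66% of all genes, with a median of 0.031. The 4 of smallest p were Igf1r (0.22 ± 0.12), the segregase Vcp (0.17 ± 0.094), the p38 kinase Mapk14 (0.23 ± 0.13) and Akt1 (-0.19 ± 0.11), with adjusted p between 0.429 and 0.474. Other Akt1 probe sets gave -0.27 and, at a mean signal of 56.2, 0.95. In the iodide comparisons within a single line, 0 members of these 6 lists passed, beside 0.468% of all genes in WT cells and 0.0896% in L629F cells. At such shares a count of 0 does not set these lists apart.

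**Figure D4:**
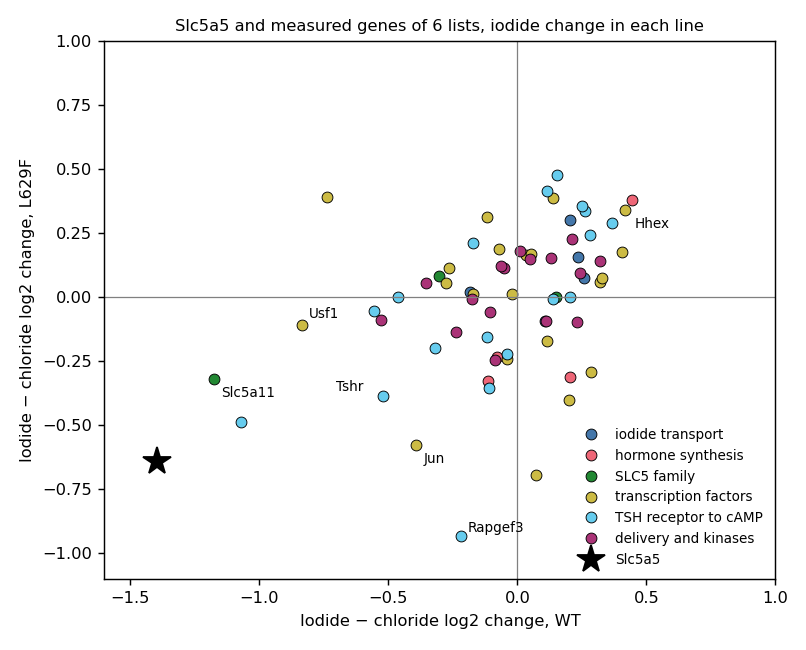
Iodide minus chloride log2 change in WT cells (x axis) and L629F cells (y axis) for Slc5a5 (star) and each tested gene of the 6 lists (points, coloured by list). Slc5a5 lies at -1.40 and -0.64, further left than every listed gene, the nearest being Slc5a11. Hhex lies above 0 and Jun below 0 in both lines.

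Genes whose log2 values ran most like Slc5a5 over the 8 arrays were picked by Pearson's r among 10046 others, whose median r was -0.032. The arrays are shared and fall into 4 groups, so these values describe the arrays and are no test. The 5 highest were Grn (0.982), the growth factor precursor progranulin, Clasp2 (0.976), a microtubule-binding protein, Agrn (0.975), the proteoglycan agrin, Col18a1 (0.975) and Col4a1 (0.968), chains of collagens of the basement membrane. Col4a1 had signals of 2666 and 2791 in WT chloride, 1019 and 1194 in WT iodide, 1738 and 2851 in L629F chloride and 1105 and 1822 in L629F iodide. Its groups stood in the same order as those of Slc5a5, which follows from picking it by r. With iodide over both lines Agrn was -0.74 ± 0.15 (adjusted p = 0.0227), Col18a1 -0.97 ± 0.19 (adjusted p = 0.0209) and Col4a1 -0.96 ± 0.17 (adjusted p = 0.0122). Grn and Clasp2, at -0.24 ± 0.091 and -0.23 ± 0.12, did not pass. These genes were picked for running like Slc5a5, so their falls with iodide come with the choice and the p-values are no separate support. The likeness also held within groups. With group means removed, r with Slc5a5 ran from 0.889 for Col4a1 to 0.972 for Clasp2. Grn, Agrn, Col18a1 and Col4a1 were, like Slc5a5, higher on replicate 2 in all 4 groups. The part of the replicate number or the GAPDH ratio in this likeness was not tested.

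The 5 genes of lowest r were Gpsm2 (-0.967), which orients the mitotic spindle, Rars1 (-0.963), an arginyl-tRNA synthetase, Rrs1 (-0.959) and Rsl1d1 (-0.956), both of ribosome assembly, and Aatf (-0.954), a nucleolar protein. Their averaged iodide changes ran from 0.23 to 0.44, a direction that likewise comes with the choice by r. None passed, the lowest adjusted p being 0.0957 for Rrs1. With group means removed, r of these genes with Slc5a5 ran from -0.977 for Gpsm2 to -0.877 for Rsl1d1. Gpsm2, Rars1, Rrs1 and Aatf were lower on replicate 2 in all 4 groups. In all, 53 genes had an r over 0.9 with Slc5a5 and 52 had one under -0.9.

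**Figure D5:**
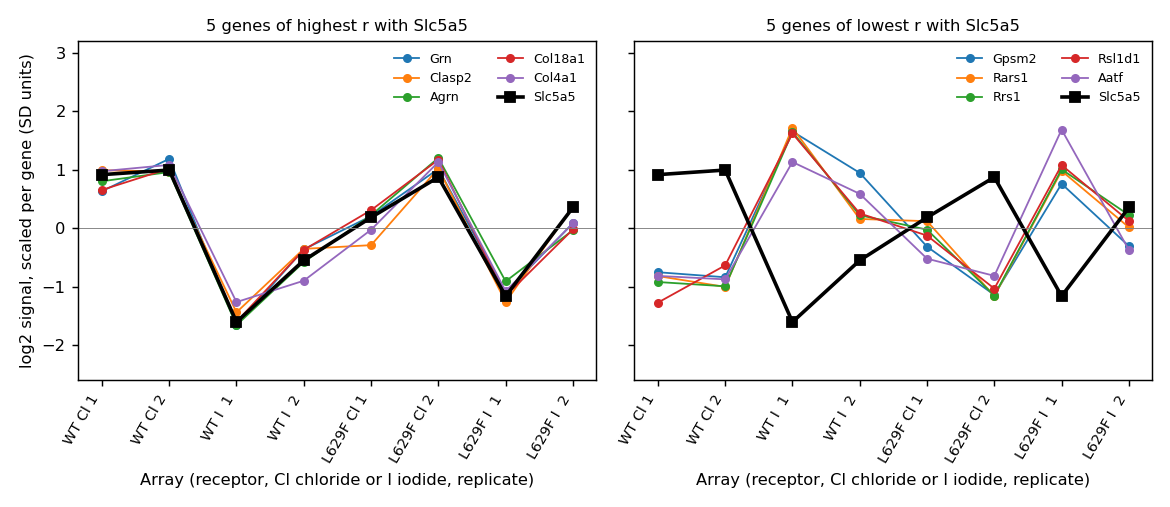
Log2 signal scaled per gene to its own mean and SD (y axis) on the 8 arrays (x axis) for Slc5a5 in black and, by r, the 5 highest genes (left) and the 5 lowest (right). The highest genes have r between 0.968 and 0.982 and the lowest between -0.967 and -0.954; lines join arrays of 1 gene and mark no order.

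The genes beside Slc5a5 on chromosome 16 were described by position. The nearest 5 tested genes on each side, in GRCr8 order, were Pgls, Colgalt1, Jak3, Fcho1 and Map1s before it and Ccdc124, Kcnn1, Arrdc2, Mast3 and Pik3r2 after it. With iodide 0 of these 10 passed over both lines, where 1.66% of all genes did, so this count says nothing particular of the neighbours. Their values ran from -0.70 for Fcho1 to 0.32 for Kcnn1 with a median of -0.036. Fcho1 had signals of 9.62 and 76.4 in WT iodide, whose mean of 43.0 lay below the dim level. Its value thus rests partly on low signals. Between receptors over both salts 1 of the 10 passed, where 3.16% of all genes did, and 1 of so few does not set them apart. This was Kcnn1, a calcium-activated potassium channel, higher in L629F than in WT cells by 1.30 ± 0.30 (adjusted p = 0.0356). Its signals were 67.0 and 38.6 in WT chloride, 82.9 and 30.3 in WT iodide, 207 and 88.7 in L629F chloride and 205 and 262 in L629F iodide. The means of both WT groups thus lay below the dim level and those of both L629F groups above it. Kcnn1 was therefore bright enough to be tested only through its L629F signals, so its adjusted p is no independent support for a difference. Low signals were higher on every L629F array, with 25th percentiles of 40.8 to 43.1 against 29.3 to 31.6 on the WT arrays, and the part of this in the Kcnn1 difference was not tested.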

How the data were processed

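The authors deposited linear intensities, 1 per probe set and array, with MAS5 as the tool named per the submitters' processing notes. Neither the version of MAS5 nor a scaling target is given in the sources used here, and the mean without the lowest and highest 2% was 500.2 on each array. Symbols came from the platform annotation, and 20758 of 20826 probe sets with 1 symbol matched the RefSeq table. Left out were 57 control probe sets and the dimmest 40% by mean signal, and each gene was represented by its brightest probe set. Values as log2(signal + 35.3) went into a limma model (version 3.58.1, R 4.3.3) with 4 groups and 8 arrays, with eBayes and an intensity trend. Tests were two-sided, and p-values were adjusted by Benjamini-Hochberg across the 10047 genes, with a threshold of 0.05. The script was tested on simulated data. The R package data.table (version 1.17.8) read the files, and Python 3.11.15 with matplotlib 3.10.9 made the figures.

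The lists and members were chosen with earlier results of these data known. Named were Slc5a5, the measured transport, hormone and SLC5 genes, the thyroid factors and Tshr, members past the threshold, up to 4 of smallest p in the other lists, the 5 genes of highest and lowest r, and 5 neighbours on each side. Alternatives changed the pseudocount, filter, scaling, probe set choice, variance moderation, arrays, replicate block and GAPDH covariate. The number of arrays limits the precision.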

Additional observations from a re-analysis of the deposited data

Results flagged for a closer look

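Foxe1 was singled out because every iodide array lay below every chloride array in WT cells and above every one in L629F cells. Its signals were 6874 and 6908 in WT chloride, 5977 and 6761 in WT iodide, 5014 and 5422 in L629F chloride and 6255 and 6714 in L629F iodide. The iodide change was -0.12 in WT and 0.31 in L629F cells, and their difference of 0.43 ± 0.17 on the log2 scale did not pass (adjusted p = 0.993). The leucocyte marker Cd14 showed the reverse order, higher with iodide in WT cells and lower in L629F cells, also without overlap. The share of all tested genes with such an order was not determined. With 2 arrays per group, the order alone thus does not set Foxe1 apart.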

How the results depend on the processing

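The averaged iodide fall of Slc5a5 kept its sign in every alternative run. It no longer passed with no filter on dim probe sets (-1.02, adjusted p = 0.0788), no intensity trend (-1.02, adjusted p = 0.176) or, chosen after seeing the data, no moderation (-1.02, adjusted p = 0.357). Leaving out single arrays gave -1.28 to -0.76 for the average and -1.76 to -1.03 for WT cells, the lone array of a group being assumed to vary like the others. The WT difference passed with the pseudocount at the median signal (-1.32, adjusted p = 0.0497), the GAPDH covariate (-1.83) and only the 4 WT arrays (-1.40, adjusted p = 0.0208). With the replicate block it was -1.40 (adjusted p = 0.000431) and the average -1.02 (adjusted p = 0.000154). Deviations of arrays of the same number correlated at 0.042 to 0.224 between groups, over 0.1 for 4 of the 6 pairs of groups, so the numbers were not taken to pair the arrays. Slc5a5 itself was higher on replicate 2 than on replicate 1 in all 4 groups, as was the GAPDH ratio.

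The receptor difference over both salts turned negative with centred arrays (-0.086), with the GAPDH covariate (-0.13) and without single arrays, where it ran from -0.18 to 0.34. With iodide it ran from -0.058 to 0.98 without single arrays. Centring moved the median of all genes by -0.16 to -0.18 in the receptor comparisons. No cause of these changes was tested.

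Counts of genes past the threshold ran from 0 to 231 for iodide in WT cells (47 as reported), 0 to 60 in L629F cells (9), 7 to 527 for the average (167), 0 to 265 for the receptors with chloride (49), 0 to 169 with iodide (51) and 0 to 1378 over both salts (317). The highest counts came from the replicate block in both lines, in the average and for the receptors with iodide, from the GAPDH covariate for the receptors with chloride, and from centring over both salts.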
